A study of Mus musculus with 6 samples.

Results

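The genes described here are 8 non-coding hosts of small nucleolar RNAs (snoRNAs): Gas5, Snhg1, Snhg3, Snhg5, Snhg6, Snhg8, Snhg12 and Zfas1. They were taken by gene name from a table of 54532 gene entries, and each name matched 1 entry. The cells are RAW264.7, a mouse macrophage line from a virus-induced tumour. C/D cells were grown under dynamic conditions for 3 days with a conductive composite gel (GelMA/PEDOT:PSS+PLLA/PDA, methacryloyl gelatin with a conducting polymer blend) and received ultrasound at 48 kHz for 5 min. Gel/S cells were grown statically with GelMA alone, also for 3 days. Each group had 3 RNA-seq libraries of the same cell line, and the labels do not say whether these were separate cultures, so the p-values measure the spread between these libraries, which may be technical. Gel material, ultrasound and dynamic or static culture changed together and cannot be told apart.

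A snoRNA host gene is transcribed and spliced like a messenger RNA gene, but its introns carry the functional products. The introns are trimmed to snoRNAs, which guide ribose methylation of ribosomal RNA (box C/D snoRNAs, a name unrelated to the C/D cells) or its pseudouridylation (box H/ACA snoRNAs). What is left after splicing has little coding potential, is loaded with ribosomes and, for several hosts, is destroyed by nonsense-mediated decay, so its level rises when translation is blocked. Many hosts, coding and non-coding, begin with a terminal oligopyrimidine (TOP) tract, which ties them to the genes of ribosomal proteins and to mTORC1 signalling. Gas5 was named for its accumulation in growth-arrested cells.

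Of the 8 hosts, 7 were expressed at a level that allowed a test. Snhg8 and Snhg6 rose in C/D, by 1.62-fold and 1.75-fold. Over all genes tested 13.1% rose and 27.0% passed in either direction, so 2 of 7 hosts is near the background. The Snhg6 call was lost when C/D 1, C/D 3 or Gel/S 3 was left out. Gas5, Snhg1, Snhg5, Snhg12 and Zfas1 did not pass, with log2 fold changes of −0.19 to 0.24. Snhg3, with 1 read in all 6 libraries, could not be tested. In bulk RNA a change in cell state and a change in RNA per cell cannot be told apart.

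The start sites were searched for letters that several hosts share. RefSeq promoter windows (GRCm38.p6) were found for 7 of the 8 hosts, all except Snhg6, with a second start for Gas5, giving 8 windows. The 40 bases before and 20 bases from the RefSeq start site are shown for the risen host Snhg8 and for 5 hosts that did not pass, so that they can be compared. Capitals mark the letters TATA or TATTTA lying 20 to 40 bases before the start, and a run of C or T letters, both read on the strand of the gene. The run is counted from its first C, which lies within 10 bases of the start, and has at least 5 letters from there. Letters T may come directly before that C, as they do in Snhg8, Snhg12 and Snhg5, so the full C or T stretch can open with T. Snhg1 has such a stretch too (tttttcctt), but it holds fewer than 5 letters from its first C and was not counted or marked.
Snhg8 (chr3:123508317-123508376, minus strand): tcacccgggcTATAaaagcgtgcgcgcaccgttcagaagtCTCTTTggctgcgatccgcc
Gas5, downstream start (chr1:161035126-161035185, plus strand): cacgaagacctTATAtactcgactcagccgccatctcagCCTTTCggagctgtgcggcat
Snhg12 (chr4:132308638-132308697, plus strand): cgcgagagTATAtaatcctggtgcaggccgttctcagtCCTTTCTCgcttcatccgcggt
Snhg5 (chr9:88522878-88522937, minus strand): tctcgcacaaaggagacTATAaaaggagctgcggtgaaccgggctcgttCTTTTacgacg
Snhg1 (chr19:8723447-8723506, plus strand): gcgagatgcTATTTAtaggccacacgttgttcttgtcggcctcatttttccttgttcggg
Zfas1 (chr2:167062894-167062953, plus strand): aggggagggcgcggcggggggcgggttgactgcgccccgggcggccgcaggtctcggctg

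The C or T run was found in 5 of the 8 host windows, against 29.0% of 32851 RefSeq promoter windows of the same length. The TATA or TATTTA letters were found in 5 of 8, against 5.9%, and both together in 4 of 8 (Snhg8, Gas5 downstream start, Snhg12, Snhg5), against 1.8%. The 2 windows with neither were those of Zfas1 and of the upstream Gas5 start. Snhg8, which rose, and Snhg12, which did not pass, both held both motifs. These letters are descriptions of the windows and not mapped factor sites.

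The hosts also differ in what they carry. Annotation in GENCODE release M21, which gives all 8 hosts the coordinates of the deposited table (GRCm38), places 32 snoRNA entries at 30 positions inside them on the same strand. Gas5 carries the most, at 9 positions that include Snord78, Snord80 and Snord47, and Snhg1 carries 8, among them Snord22, the snoRNA for which that host was first described. Snhg12 carries 4, of which Snora16a, Snora44 and Snora61 are of the box H/ACA kind and Snord99 of the box C/D kind. Zfas1 carries 3 including Snord12, Snhg5 carries Snord50a and Snord50b, and Snhg3 carries Snora73a and Snora73b, the mouse U17 RNAs that act in ribosomal RNA processing. Each risen host carries a single snoRNA, Snora24 in Snhg8 and Snord87 in Snhg6. Both sequences are shown from the GENCODE transcripts because they are the products of the hosts that rose, with capitals on the box motifs: ATGATGA and CTGA (boxes C and D) in Snord87, and the letters AGAGCA of the ANANNA (box H) pattern and the ACA near the end in Snora24.
Snord87 (chr1:9942463-9942549, minus strand): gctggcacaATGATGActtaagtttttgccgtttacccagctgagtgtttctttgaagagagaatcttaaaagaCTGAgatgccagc
Snora24 (chr3:123507937-123508066, minus strand): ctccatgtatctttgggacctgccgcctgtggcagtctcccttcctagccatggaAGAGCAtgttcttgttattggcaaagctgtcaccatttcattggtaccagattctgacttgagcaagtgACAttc

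**Figure D1:**
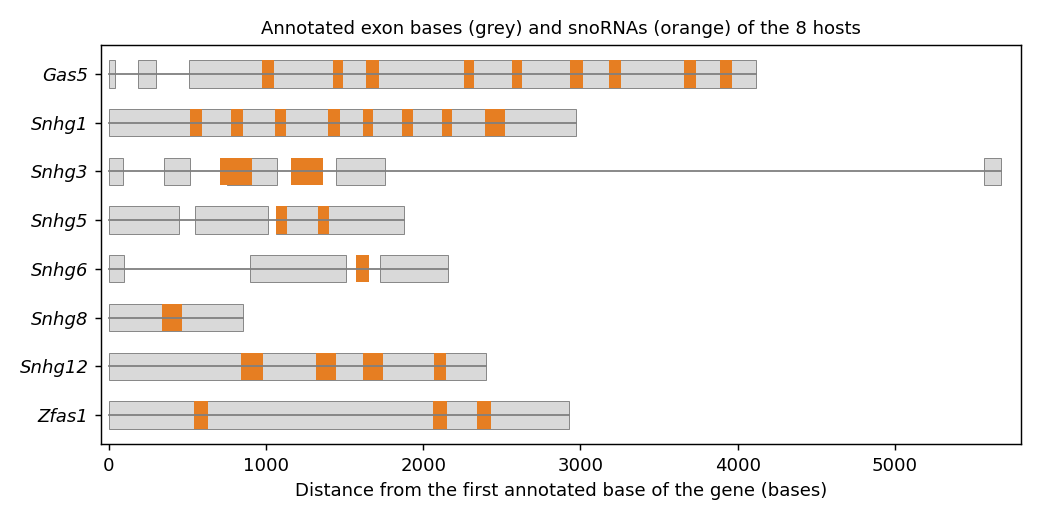
Annotated exon bases (grey boxes, all transcripts of a gene merged) and snoRNA positions (orange) of the 8 hosts, drawn from the first annotated base of each gene, with distance in bases. Exon bases cover the whole span of Snhg1, Snhg8, Snhg12 and Zfas1 and most of that of Gas5 (91.3%) and Snhg5 (92.0%), and the 3 snoRNA entries outside exon bases are the 2 of Snhg3 and the 1 of Snhg6.

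The snoRNAs themselves were almost absent from the counts. Of the 32 entries, 31 had 0 counts in all 6 libraries, and Snord87 had 1, 0 and 0 counts in C/D and 0, 3 and 0 in Gel/S. A count of 0 allows up to 3 counts in a library, or 0.182 to 0.234 CPM (counts scaled to a common library size) over the 6 libraries, for counting error only. Among all snoRNA entries deposited, 229 of 1507 had a count. The library kit was made for messenger RNA, and 29 of the 32 entries lie wholly on bases that some host transcript annotates as exon; the part of either in these zeros was not tested. Whether reads of a snoRNA were counted in its host was not tested either.

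That annotation also sets the scale of the levels. The authors' FPKM (fragment counts scaled to library size and gene length) divides by a listed length that equals the merged exon length in M21 for all 8 hosts. For Gas5 this is 3760 bases, or 91.3% of its span, 20 of its 25 annotated transcripts are retained-intron forms, and its median transcript has 629 bases. For Snhg1 it is 2969 bases against a median transcript of 602.

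The libraries held 12818831 to 15802627 counts in C/D and 15579679 to 16525699 in Gel/S, and the hosts took 0.0238% to 0.0264% of them in C/D and 0.0176% to 0.0239% in Gel/S. The first principal component of log2 CPM, with 55.8% of the variance, separated the groups and placed Gel/S 1 farthest out. Mitochondrial transcripts took 9.17% to 10.4% of counts in C/D and 5.59% to 9.02% in Gel/S, lowest in Gel/S 1. Macrophage markers (9 genes) summed to 17100 to 17200 CPM in C/D and 20600 to 21100 CPM in Gel/S, with Csf1r fallen and Mertk below the level filter. Of 8 stromal markers 5 had no count, and their sums were 4 to 4.34 CPM in C/D and 4.22 to 5.02 CPM in Gel/S. Endothelial, T cell and B cell lists (4 genes each) summed to at most 5.14 CPM in any library. Osteoclast markers (6 genes, which RAW264.7 cells can express) summed to 90.1 to 102 CPM in C/D and 117 to 125 CPM in Gel/S, with Acp5 risen (log2 fold change 0.53), Dcstamp fallen (−0.96) and Calcr at 0. The part of these shifts in the host values was not tested.

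In the edgeR quasi-likelihood test on counts, with Benjamini-Hochberg adjustment over 11708 genes, 2 of the 7 hosts tested rose, none fell and 5 did not pass at an adjusted p under 0.05, and 2 had an unadjusted p under 0.05. Over all genes 27.0% were called, 13.1% as risen and 13.9% as fallen, so 2 calls among 7 hosts is near the background. With limma on log2(TPM + 1), 29.5% of calls were risen, against 48.4% in edgeR on counts. The median log2 fold change (C/D over Gel/S) was 0.10 for the 7 hosts and 0.01 for all genes tested, and the host median became −0.04 with limma on TPM, where that of all genes was −0.12, and −0.01 without Gel/S 1. It was 0.28 without C/D 3 and 0.22 without Gel/S 2. The authors' deposited table has the same 2 hosts with an adjusted p under 0.05, where 14.9% of 21850 genes with a value have one.

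Snhg8, the host of Snora24 (chromosome 3, 123507552 to 123508404), had the clearest rise. It had 32.4, 29.0 and 36.6 CPM in C/D 1 to 3, against 18.1, 17.4 and 24.9 CPM in Gel/S 1 to 3. All 3 C/D libraries lay above all 3 Gel/S libraries, and Gel/S 3 was the highest of its group. The log2 fold change was 0.70 (SE 0.146, edgeR adjusted p = 0.00565), and it stayed called when any 1 library was left out (0.60 to 0.87). The authors' deposited table gives a log2 ratio of −0.66 for Snhg8 as Gel/S over C/D, with an adjusted p of 0.000658.

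Snhg6, the host of Snord87 (chromosome 1, 9941959 to 9944118), had 25.5, 24.2 and 24.7 CPM in C/D, against 8.88, 19.6 and 14 CPM in Gel/S. The C/D libraries nearly coincided while the Gel/S libraries spread widely, with Gel/S 1 the lowest, and the groups did not overlap. The Snhg6 log2 fold change was 0.81 (SE 0.211, edgeR adjusted p = 0.0162). Its call was lost when C/D 1 (edgeR adjusted p = 0.0632), C/D 3 (0.0504) or Gel/S 3 (0.0519) was left out, with log2 fold changes of 0.79, 0.81 and 0.79. Without Gel/S 1 the log2 fold change was 0.56 (adjusted p = 0.00698) and without Gel/S 2 it was 1.11. The authors' deposited table gives −0.77 for Snhg6 as Gel/S over C/D (adjusted p of 0.00232). Higher CPM in C/D without overlap was seen for these 2 hosts alone among the 7, where 22.1% of all genes tested show it, and no host was lower without overlap, where 23.1% are.

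**Figure D2:**
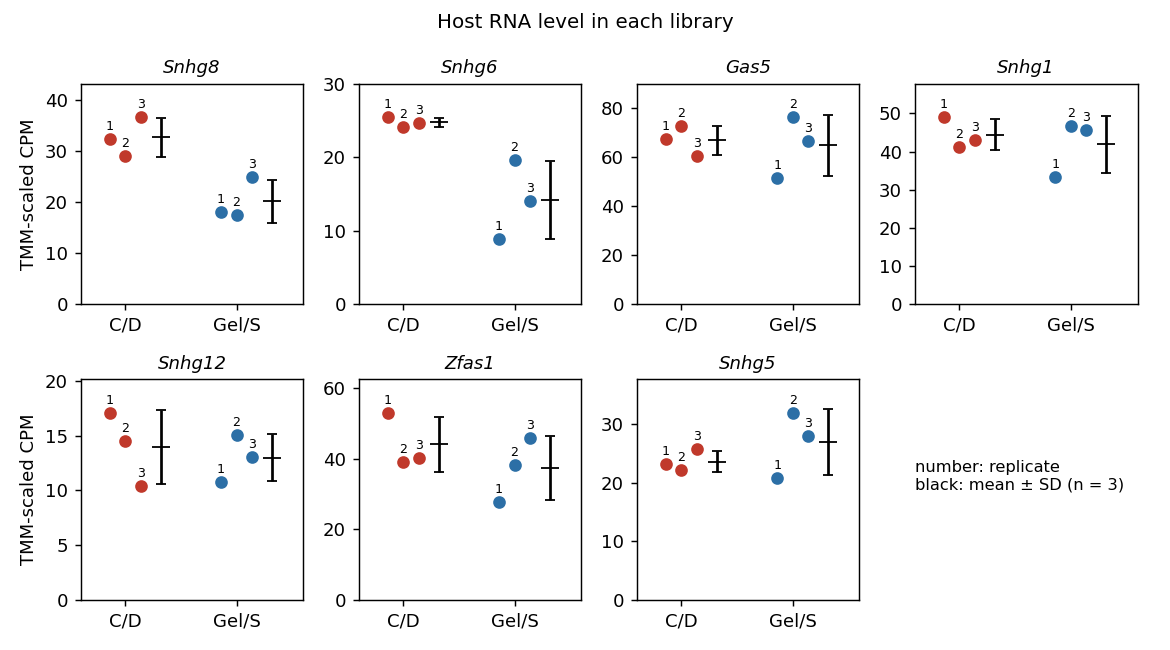
Level of the 7 tested hosts in each library, as CPM scaled by TMM factors, with C/D in red and Gel/S in blue; small numbers are replicates and black bars the mean ± SD (n = 3). Snhg8 and Snhg6 separate by group, and Gel/S 1 is the lowest Gel/S library for every host except Snhg8.

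Gas5 (chromosome 1, 161034422 to 161038539) is the host best known for arrest of growth, and in human cells its RNA was found to bind the glucocorticoid receptor. It had 67.3, 72.8 and 60.6 CPM in C/D, against 51.6, 76.4 and 66.7 CPM in Gel/S. The Gel/S values spanned those of C/D. Its log2 fold change was 0.04, with a 95% interval of −0.24 to 0.33, which is a fold of 0.847 to 1.26 (edgeR adjusted p = 0.823).

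Snhg1 (chromosome 19, 8723475 to 8726443), the U22 host gene, had 49.0, 41.3 and 42.9 CPM in C/D and 33.3, 46.6 and 45.7 CPM in Gel/S. The groups overlapped, and its log2 fold change was 0.08 (95% interval −0.20 to 0.37, edgeR adjusted p = 0.654). Zfas1 (chromosome 2, 167062934 to 167065862), transcribed away from the promoter of the zinc finger gene Znfx1, had 53.0, 39.1 and 40.2 CPM in C/D and 27.8, 38.3 and 45.8 CPM in Gel/S. Its highest and lowest libraries, C/D 1 and Gel/S 1, stood apart from 4 that intermixed (log2 fold change 0.24, 95% interval −0.13 to 0.61, edgeR adjusted p = 0.303).

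Snhg12 (chromosome 4, 132308623 to 132311024) was the lowest host tested per length and had 17.1, 14.5 and 10.4 CPM in C/D and 10.8, 15.1 and 13.1 CPM in Gel/S. Its libraries intermixed, and the 95% interval of its log2 fold change ran from −0.30 to 0.50 around 0.10 (edgeR adjusted p = 0.708). For Gas5, Snhg1 and Snhg12 the sign of the log2 fold change turned in some alternatives, within −0.09 to 0.28 over the 3 genes.

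Snhg5 (chromosome 9, 88521050 to 88522929), the host of the U50 snoRNAs, was the only one of the 7 with a negative log2 fold change. It had 23.1, 22.1 and 25.7 CPM in C/D, against 20.8, 31.9 and 28 CPM in Gel/S. All C/D libraries lay below Gel/S 2 and Gel/S 3 and above Gel/S 1. The log2 fold change was −0.19 (95% interval −0.51 to 0.13, edgeR adjusted p = 0.358). Without Gel/S 1 it was −0.34 and passed (edgeR adjusted p = 0.0366), in a fit that called 13.4% of genes as fallen.

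**Figure D3:**
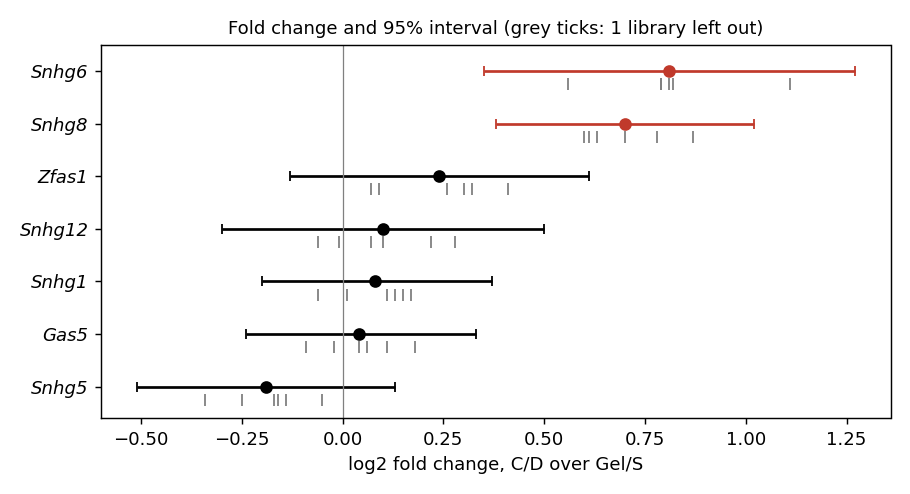
Log2 fold change (C/D over Gel/S) of the 7 tested hosts with its 95% interval, red where the adjusted p is under 0.05, and grey ticks for the value with 1 library left out. Snhg6 at 0.81 and Snhg8 at 0.70 have intervals above 0, and the intervals of the other 5 include 0.

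Snhg3 (chromosome 4, 132348014 to 132353686) had 0, 1 and 0 counts in C/D and 0, 0 and 0 in Gel/S. Of its 986 exon bases, 821 are also annotated as exon of another gene on either strand, 135 of them in Rcc1 on its own strand. Rcc1, a nucleotide exchange factor of the Ran GTPase, starts 81 bases from the Snhg3 start and fell in C/D (47.8 ± 4.50 CPM in C/D and 59.2 ± 2.71 CPM in Gel/S, SD, n = 3 each, log2 fold change −0.31, edgeR adjusted p = 0.0315). The Rcc1 call was lost in 4 of 16 alternatives: when C/D 1, C/D 2 or Gel/S 3 was left out, and with replicate number as a block. No source used here gives the strand setting of the counting, so a level of Snhg3 cannot be read from these counts.

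Between hosts, levels are compared per length as FPKM. In C/D the order was Snhg8 (37.4 ± 4.40), Snhg6 (21.1 ± 0.465), Gas5 (17.4 ± 1.58), Zfas1 (14.7 ± 2.51), Snhg1 (14.6 ± 1.26), Snhg5 (13.4 ± 1.08) and Snhg12 (5.69 ± 1.36 FPKM, SD, n = 3). Snhg8, Snhg6 and Snhg12 stood apart from their neighbours in every library, and the ranges of Gas5, Zfas1, Snhg1 and Snhg5 overlapped from each to the next. In Gel/S, Snhg8 (23.7 ± 4.78 FPKM) was again first and Snhg12 (5.45 ± 0.830 FPKM) last, while Snhg6 (12.4 ± 4.59 FPKM) stood sixth behind Gas5, Snhg5, Snhg1 and Zfas1, with ranges that overlapped theirs. The order depends on the length used. Per kilobase of the median annotated transcript, a scale chosen after seeing the data, Gas5 came first with 105 ± 10 CPM per kilobase in C/D and 103 ± 17.3 in Gel/S, ahead of Snhg1 (73.0 ± 6.31 and 69.3 ± 10.9), while Snhg8 had 61.2 ± 6.93 and 38.1 ± 7.90.

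**Figure D4:**
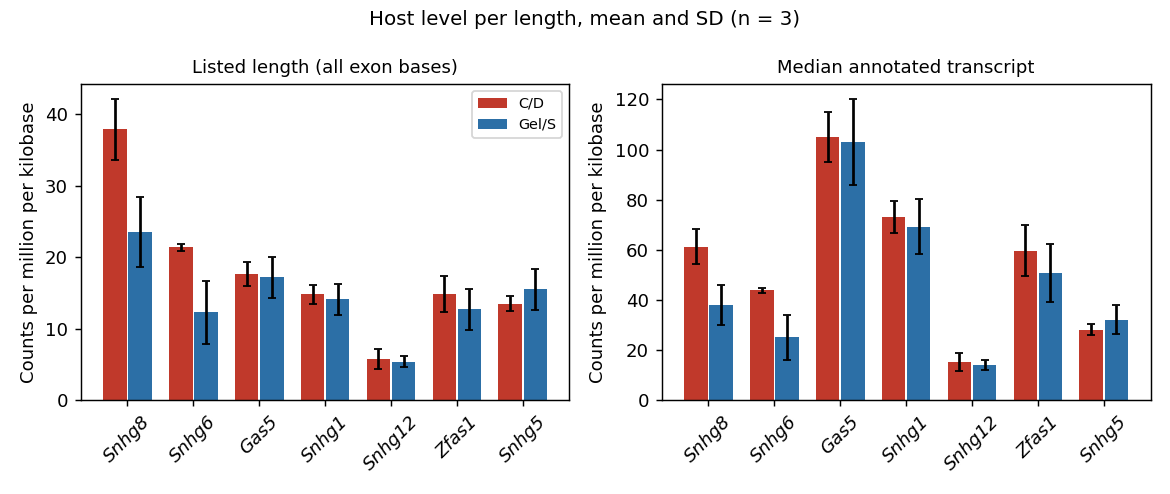
CPM per kilobase of the 7 tested hosts (bars are means and error bars SD, n = 3; C/D in red, Gel/S in blue), divided by the listed length on the left and by the median annotated transcript on the right. Snhg8 is highest in C/D on the left at 37.9, and Gas5 on the right at 105.

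Gel/S 1 was the lowest Gel/S library for 6 of the 7 hosts, by 0.25 to 0.59 on the log2 scale below the mean of its group, and Snhg6 was farthest below. After the group means were removed, Pearson correlations over the 6 libraries were 0.94 between Snhg5 and Snhg6, 0.92 between Snhg1 and Zfas1 and 0.89 between Gas5 and Snhg6. Over all pairs without Snhg8 they ran from 0.28 to 0.94, and those of Snhg8 with the other 6 hosts from −0.29 to 0.53. These are descriptions of 6 libraries that share their scaling. The genes outside the family whose log2 CPM over the 6 libraries was most like the mean profile of the hosts were Mta3, Banp, Galt, Ss18l2, Aldoa and Coa3, with Pearson r of 0.989 to 0.997. They were picked by that correlation, so a high r and a profile like that of the hosts follow from the choice. All 6 were lowest in Gel/S 1 and highest in C/D 1, as the Aldoa values of 3200, 2920 and 2860 CPM in C/D and 2290, 3000 and 2830 CPM in Gel/S show, and none of the 6 passed the test between groups.

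Of the 4 tested genes that start near a host, 1 rose, 1 fell (Rcc1) and 2 did not pass. Over all genes 13.1% rose and 13.9% fell, and 4 genes are too few to set against those shares. Zbtb37, a zinc finger gene that starts 427 bases from the Gas5 start on the opposite strand and overlaps it, rose (54.7 ± 2.81 CPM in C/D and 42.0 ± 3.69 CPM in Gel/S, SD, n = 3 each, log2 fold change 0.38, edgeR adjusted p = 0.0130), a call lost in 6 of the 16 alternatives: when C/D 2 or C/D 3 was left out, with limma on FPKM (both pseudocounts) or TPM, and with gene length offsets (highest adjusted p 0.212). Slc3a2, the heavy chain of amino acid transporters, starts 106 bases from the Snhg1 start and had a log2 fold change of 0.11 (edgeR adjusted p = 0.353). Znfx1, which overlaps Zfas1 by 82 bases on the opposite strand, had −0.11 (edgeR adjusted p = 0.360).

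Other genes listed as non-coding snoRNA hosts numbered 14, of which 9 were tested, 6 rose, none fell and 3 did not pass, where 13.1% of all genes rose. Their log2 fold changes had a median of 0.67, against 0.01 for all genes. Snhg20 had 84.9, 85.0 and 84.3 CPM in C/D, against 35.4, 48.8 and 46.0 CPM in Gel/S (log2 fold change 0.96, SE 0.112, edgeR adjusted p = 0.000268). Epb41l4aos had 31.6, 25.5 and 30.3 CPM in C/D, against 10.9, 16.4 and 17.0 CPM in Gel/S (log2 fold change 0.98, SE 0.161, edgeR adjusted p = 0.00170). In both genes every C/D library was well above every Gel/S library.

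Snhg15 rose too, with 26.0, 23.8 and 27.1 CPM in C/D and 13.7, 17.8 and 17.0 CPM in Gel/S (log2 fold change 0.67, edgeR adjusted p = 0.00330), and 2410006H16Rik had a log2 fold change of 0.38. Snhg20, Epb41l4aos and Snhg15 kept their calls in all 16 alternatives. Snhg4 (0.66) and Snhg10 (1.61), named after their values were seen, lost theirs in 8 and 9 of the 16, and 2410006H16Rik in 5, and leaving out any 1 of the C/D libraries ended all 3 calls. The Snhg10 value rests on few counts, 19, 28 and 23 in C/D and 4, 3 and 18 in Gel/S. The count of 6 risen in this list was 3 when any 1 of the C/D libraries was left out and 3 with limma on TPM. No snoRNA is annotated in M21 on the strand and within the span of Snhg4, Snhg10 and Snhg20, so 9 of the 12 genes of this list found in the table are hosts by that annotation. All 3 of those without one rose, and of the 6 tested genes with one 3 rose and 3 did not pass.

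Protein-coding hosts were followed in 2 classes. Among ribosomal protein genes with a snoRNA in an intron, 7 of 20 rose, 1 fell and 12 did not pass (median log2 fold change 0.31), where 13.1% of all genes rose and 13.9% fell. Rpl23 rose (1850, 1490 and 1620 CPM in C/D and 931, 1260 and 1230 CPM in Gel/S, log2 fold change 0.54), as did Rpl30 (0.90) and Rpl7a (0.77), and Rps2 fell (−0.41). Gel/S 1 was the lowest library for Rpl23, Rpl30 and Rpl7a. Ribosomal protein genes have many near-identical pseudogene copies that can share their reads, so these values are uncertain. Rps2 stood at 19 ± 1.17 CPM in C/D and 25.4 ± 2.26 CPM in Gel/S (SD, n = 3 each), and Rpl23 at 1650 ± 183 CPM and 1140 ± 182 CPM. All 4 calls were lost without C/D 1, those of Rpl7a and Rps2 also when C/D 3 or Gel/S 3 was left out. With all libraries kept, Rpl7a and Rpl30 lost their calls with limma on FPKM (both pseudocounts). Rpl7a also lost its call with DESeq2, and Rpl30 with limma on TPM. The count of 7 risen was 0 when C/D 1 was left out, 4 for C/D 2, 2 for C/D 3, 12 for Gel/S 2 and 2 for Gel/S 3. Leaving out Gel/S 1 kept the count at 7 with a median of 0.16. It was 1 with limma on FPKM (both pseudocounts) and 2 with limma on TPM.

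Of 28 other coding hosts, 2 rose, 7 fell and 19 did not pass (median −0.09), so that 9 of 28 were called, near the 27.0% of all genes. Eif4g2, a translation factor that works without the cap-binding protein, fell to 340, 365 and 381 CPM in C/D, against 707, 551 and 607 CPM in Gel/S (log2 fold change −0.78, SE 0.108, edgeR adjusted p = 0.000719). Nap1l4, a histone chaperone (−0.50), Tcp1, a subunit of the cytosolic chaperonin (−0.40), and Prrc2a (−0.53) fell as well, and all 4 calls held in the 16 alternatives. The count of 7 fallen was 4 when C/D 1 was left out, and the count of 2 risen was 5 when Gel/S 2 was left out and 0 for C/D 2 or C/D 3.

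**Figure D5:**
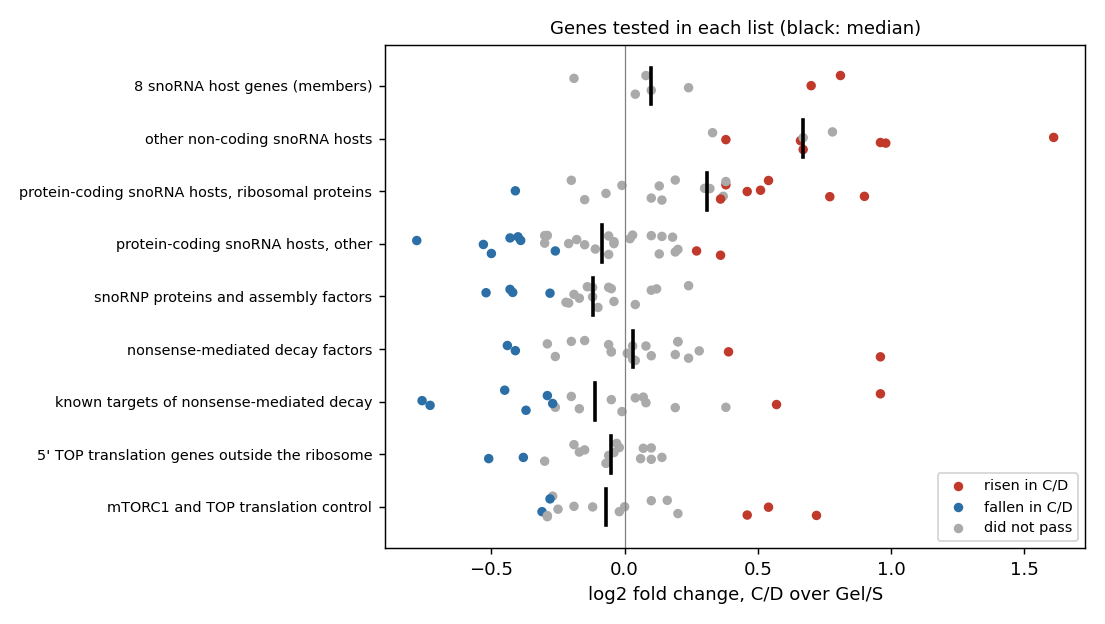
Log2 fold change (C/D over Gel/S) of each tested gene in the 8 hosts and in 8 lists of related genes, red if risen, blue if fallen and grey if the test was not passed, with black bars at the medians. Other non-coding hosts have the highest median, 0.67, and snoRNP proteins the lowest, −0.12.

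Genes that build snoRNPs and genes that govern the decay and translation of host RNA were followed in 5 further lists, to be read against the 13.1% of all genes that rose and the 13.9% that fell. Of 19 snoRNP proteins and assembly factors none rose, 4 fell and 15 did not pass (median −0.12). The fallen ones were Dkc1, the pseudouridine synthase of box H/ACA particles (40.9 ± 3.95 CPM in C/D and 55.3 ± 8.07 CPM in Gel/S, SD, n = 3 each, log2 fold change −0.43), its assembly chaperone Shq1 (−0.52), the chaperone adaptor Rpap3 (−0.42) and the box C/D protein Snu13 (−0.28). The Shq1 call held in all 16 alternatives, while without C/D 1 those of Dkc1, Rpap3 and Snu13 were lost, as were the last 2 when C/D 2 was left out, Rpap3 without C/D 3 or Gel/S 1, and Snu13 without Gel/S 2 or Gel/S 3. With all libraries kept, the Dkc1 call was lost with limma on TPM and that of Snu13 with replicate number as a block. The count of 4 fallen was 1 with C/D 1 left out, 2 with C/D 2 left out and 6 with Gel/S 1 left out. Dkc1 is itself a coding snoRNA host and is counted in both lists.

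Of 22 nonsense-mediated decay factors 2 rose, 2 fell and 18 did not pass (median 0.03). Smg1, the kinase that phosphorylates Upf1, rose to 357, 340 and 344 CPM in C/D, against 184, 165 and 184 CPM in Gel/S (log2 fold change 0.96, SE 0.0870, edgeR adjusted p = 6.42e-05), while the release factors Etf1 (−0.44) and Gspt1 (−0.41) fell and the helicase Dhx34 rose (0.39), with overlapping groups and a call lost in 8 of the 16 alternatives, among them leaving out C/D 1, C/D 2, Gel/S 1 or Gel/S 3. Of 18 tested coding mRNAs known as decay targets, 2 rose, 6 fell and 10 did not pass (median −0.11). Smg1, which is in both lists, and the splicing regulator Ptbp2 (0.57) rose, and Gadd45b (−0.76), a stress-induced growth arrest gene, and Atf3 (−0.45), a stress-induced transcription factor, fell. The count of 6 fallen targets was 3 when C/D 1 or C/D 2 was left out and 2 when Gel/S 3 was. The count of 2 risen factors was 4 when Gel/S 2 was left out and 1 for C/D 1, C/D 2, Gel/S 1 or Gel/S 3.

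Of 16 TOP genes of translation outside the ribosome none rose, 2 fell and 14 did not pass (median −0.05). Pabpc1, the poly(A)-binding protein, had 1010 ± 98.6 CPM in C/D and 1450 ± 293 CPM in Gel/S (SD, n = 3 each, log2 fold change −0.51, edgeR adjusted p = 0.0221), and the elongation factor Eef1a1 fell (−0.38). Each call was lost in 7 of the 16 alternatives. Both were lost when any 1 of the C/D libraries or Gel/S 3 was left out, and with limma on FPKM (both pseudocounts). Pabpc1 was also lost with limma on TPM, and Eef1a1 with replicate number as a block. The elongation factor Eef2 (−0.30, edgeR adjusted p = 0.0638) and Nap1l1 (−0.19, edgeR adjusted p = 0.129) did not pass. Of 16 genes of mTORC1 and TOP translation control 3 rose, 2 fell and 11 did not pass (median −0.07). Deptor, an mTOR inhibitor, rose (49.4, 39.9 and 41.5 CPM in C/D and 27.8, 28.5 and 23.2 CPM in Gel/S, log2 fold change 0.72, edgeR adjusted p = 0.00161). The mTOR subunit Mlst8 (0.54) and the kinase Rps6kb2 (0.46) rose and the cap-binding protein Eif4e (−0.31) fell, calls lost by all 3 without C/D 3 or Gel/S 3, by Mlst8 and Rps6kb2 without C/D 1, and by Eif4e without C/D 2. With all libraries kept, Mlst8 and Rps6kb2 lost their calls with limma on TPM, and Rps6kb2 also with limma on FPKM (both pseudocounts). The count of 3 risen was 1 when C/D 1, C/D 3 or Gel/S 3 was left out, and the count of 2 fallen was 5 when Gel/S 2 was left out and 0 for C/D 2, C/D 3 or Gel/S 3.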

How the data were processed

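The table was deposited by the authors with raw counts per gene and library and with FPKM, per the file headers; its signal columns (group means of scaled counts), log2 fold changes (Gel/S over C/D), p-values and adjusted p-values are also the authors' own. The build was GRCm38 (mm10) per the submitters' processing notes. No source used here names the aligner, the counter or the strand setting. Columns named GEL were read as Gel/S and those named US (ultrasound) as C/D, so every direction rests on that reading. For 100 symbols that have several entries the counts were added up, and 27 symbols turned into dates were restored from gene IDs. Genes with a mean FPKM of at least 1 (11708) were tested with edgeR 4.0.16 (quasi-likelihood, TMM factors, R 4.3.3), Benjamini-Hochberg adjustment and a threshold of 0.05. The SE was computed as |log2 fold change| divided by √F. Alternatives used limma 3.58.1 on log2(FPKM + 1) and on TPM rescaled from the FPKM, and DESeq2 1.42.0. The fit was tested on simulated counts. Annotation was GENCODE M21; promoter windows came from RefSeq. Named genes were all hosts, up to 4 per list by smallest adjusted p, tested neighbours, and the 6 most correlated genes (mean FPKM of at least 2). The hosts and lists were chosen with earlier results of these data known.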

Additional observations from a re-analysis of the deposited data

How the results depend on the processing

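Over 16 alternatives (10 changes of scaling, test, filter, pseudocount, length correction or pairing, and leaving out each of 6 libraries), 108 of 112 values of the 7 tested hosts kept their side of the threshold, 3 lost a call and 1 gained one. None of the called values named for hosts, lists or neighbours changed sign. The count of risen hosts was 2 and the count of fallen hosts 0 in each of the 10 alternatives that keep all libraries. With 1 library left out, the risen count ran from 1 to 2 (1 without C/D 1, C/D 3 or Gel/S 3, where Snhg6 missed the threshold), and the fallen count from 0 to 1 (1 without Gel/S 1, Snhg5). The median log2 fold change of the hosts ran from −0.01 to 0.28 with 1 library left out and was −0.04 on TPM, where the median of all genes was −0.12 and 29.5% of calls were risen, against 48.4% in edgeR on counts, 40.9% with limma on log2(FPKM + 1) and 40.3% with a pseudocount of 0.1. With offsets for gene length, Snhg8 had 0.49 and Snhg6 0.65, both still called. Over all genes, leaving out C/D 1 gave 910 risen and 902 fallen, C/D 2 gave 928 and 876, C/D 3 gave 954 and 1006, and Gel/S 3 gave 887 and 1005, while Gel/S 1 gave 1499 and 1571 and Gel/S 2 gave 1989 and 2089. Risen genes ranged over the alternatives from 3 to 8 for other non-coding hosts, 0 to 12 for ribosomal protein hosts and 0 to 5 for other coding hosts, where fallen genes ranged from 4 to 10. Fallen genes ranged from 1 to 6 for snoRNP genes, 2 to 3 for decay factors, 2 to 7 for decay targets, 0 to 3 for TOP genes and 0 to 6 for mTORC1 genes, and risen genes in these 5 lists from 0 to 4. Same-numbered libraries of the 2 groups deviated with correlations of −0.06, −0.06 and 0.05, and not every library correlated best with its own number. The labels do not say whether same-numbered libraries were handled together, and these correlations cannot decide it. With the replicate block, 1242 genes rose and 1302 fell, against 1532 and 1631 without it, and the hosts kept 2 risen (Snhg8, log2 fold change 0.71, and Snhg6, 0.85) and 0 fallen, while risen ribosomal protein hosts numbered 3 and risen other non-coding hosts 4. The 7 tested hosts rest on 145 to 1230 counts a library.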
